A study of Macaca mulatta with 4 samples.

Results

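The neurotrophins and their receptors were followed in nuclei of the fetal rhesus macaque cerebellum through 5 genes, NTF3, BDNF, NTRK2, NTRK3 and NGFR. They were taken by symbol from the gene list of the deposited matrices, which holds 30807 genes, and all 5 were found (NTF3, ENSMMUG00000014646; BDNF, ENSMMUG00000008634; NTRK2, ENSMMUG00000023117; NTRK3, ENSMMUG00000001386; NGFR, ENSMMUG00000014603). Single-nuclei RNA was measured in the cerebellum of 4 fetuses, with 1 library per fetus. The 2 Control fetuses, 1 female and 1 male, had no intervention and were at 130 days of gestation. The 2 LPS fetuses had received 1 mg of bacterial lipopolysaccharide into the amniotic fluid 5 days before delivery, a model of chorioamnionitis, and were at 131 days (female) and 133 days (male). Values of the 4 libraries are given in the order Control female, Control male, LPS female and LPS male.

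Neurotrophins are secreted growth factors that act on neurons through 2 kinds of receptor. NTF3 encodes neurotrophin-3, whose preferred receptor is the tyrosine kinase TrkC, encoded by NTRK3. BDNF encodes brain-derived neurotrophic factor, the main ligand of TrkB, encoded by NTRK2. NGFR encodes the p75 receptor, which lacks a kinase domain and binds all neurotrophins and their uncleaved precursors. In the developing cerebellum, granule cells divide in the external layer, leave the cell cycle, migrate inward past Purkinje cells along Bergmann glia and mature in the internal layer. BDNF and neurotrophin-3 are known for their part in the survival and migration of granule cells and in the growth of Purkinje cells.

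The libraries held 34282015 to 61665690 unique molecular identifiers (UMIs, counts of captured RNA molecules), and 32565 barcodes with at least 500 genes were used as nuclei, 6890 to 9250 per library. Of these, 22276 fell into the granule lineage, which was divided into 6 named stages, proliferating, committing, migrating, maturing, later and mature, and 1 unnamed cluster of 320 nuclei. The 5 genes and the other genes of their pathway were left out of the clustering, so that their levels did not shape the classes. Classes still rest on other genes of the same nuclei. All classes had most of their markers at their highest or second highest level among classes, from 4 of 7 markers found in molecular layer interneurons to 9 of 9 in astrocytes and microglia. The clusters were named from these same markers, so that this is a description and no independent check. The LPS male library stood apart. Only 38.7% of its UMIs lay in nuclei, against 58.7 to 73.9% in the others, mature granule cells made up 19.2% of its nuclei, against 4.54 to 5.09%, and 1933 of the 2571 nuclei of an unnamed cluster with few UMIs came from it. Pairs of libraries shared 16 to 21 barcodes, against 7.91 to 11.7 if drawn at random. Median UMIs per nucleus were 4508 and 4063 in the female libraries and 1882 and 2308 in the male libraries. Levels are given as CPM, the UMIs of a gene scaled to the total UMIs of the class and library, with SD over the 4 libraries. Since introns were counted and gene lengths differ, levels were compared within a gene and not between genes.

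NTF3, the ligand of TrkC, was concentrated in the granule stages after migration. Of its 8457 UMIs in nuclei, 87.1% lay in the granule lineage, which held 65.7% of the UMIs of all genes. In proliferating precursors NTF3 had 28.0, 25.1, 30.6 and 21.2 CPM, and in migrating granule cells 30.1, 33.4, 35.4 and 13.9 CPM. In maturing granule cells it had 211.7, 163.6, 206.4 and 170.0 CPM, and every library of this stage lay above every library of the 3 stages before it. Later granule cells had 135.4, 124.3, 152.1 and 106.7 CPM, and mature granule cells 89.3, 90.9, 83.0 and 25.8 CPM. The order of the 3 highest levels was therefore maturing (188 ± 24.6), later (130 ± 19.1) and mature granule cells (72.3 ± 31.1, SD, n = 4), with ranges over libraries that did not overlap between neighbours. From the mature stage downward each class overlapped the next. Purkinje cells were lowest, with 6 UMIs of NTF3 in 118 nuclei (4.67 CPM), and astrocytes followed with 6.89 ± 1.17 CPM. When each nucleus was thinned to 1000 UMIs, 15.4% of maturing granule nuclei (13.6 to 17.2% over libraries) held an NTF3 UMI, and 0.328% of astrocytes did. Without thinning the share of maturing granule nuclei was 35.6%.

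BDNF was scarce and was highest in mature granule cells. Only 690 UMIs were counted in all nuclei, 42.3% of them in mature granule cells, which were 8.34% of nuclei. In this stage BDNF had 45.3, 33.6, 25.9 and 21.8 CPM, from 110, 34, 40 and 108 UMIs. Later granule cells, the next stage, had 4.84, 3.07, 6.61 and 5.88 CPM, and the earlier stages had means of 1.77 to 3.11 CPM. In measured CPM the mature stage (31.6 ± 10.3) did not overlap any of the other 16 classes and stages with at least 10 nuclei in every library. Those 16 overlapped one another in order, from Purkinje cells at 6.22 ± 5.80 CPM downward. Counts of 0 in the LPS male library allow up to 25.1 CPM in proliferating glia and 32.2 CPM in endothelial cells. These limits, and that of Purkinje cells (24.4 CPM), pass the 21.8 CPM of its mature stage, so that a gap to these classes is not shown. Purkinje cells had 7, 1, 5 and 0 UMIs, and the count of 0 in the LPS male library allows up to 24.4 CPM, so that their level could not be placed against that of the granule lineage. Unipolar brush cells, of which 2 libraries held 10 nuclei or fewer, had 22.0, 0, 44.5 and 21.7 CPM from 11 UMIs in all. After thinning to 1000 UMIs, 2.73% of mature granule nuclei (1.88 to 4.69%) held a BDNF UMI, against 0.434% of later granule nuclei, and the share of mature granule nuclei was 9.63% without thinning.

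**Figure D1:**
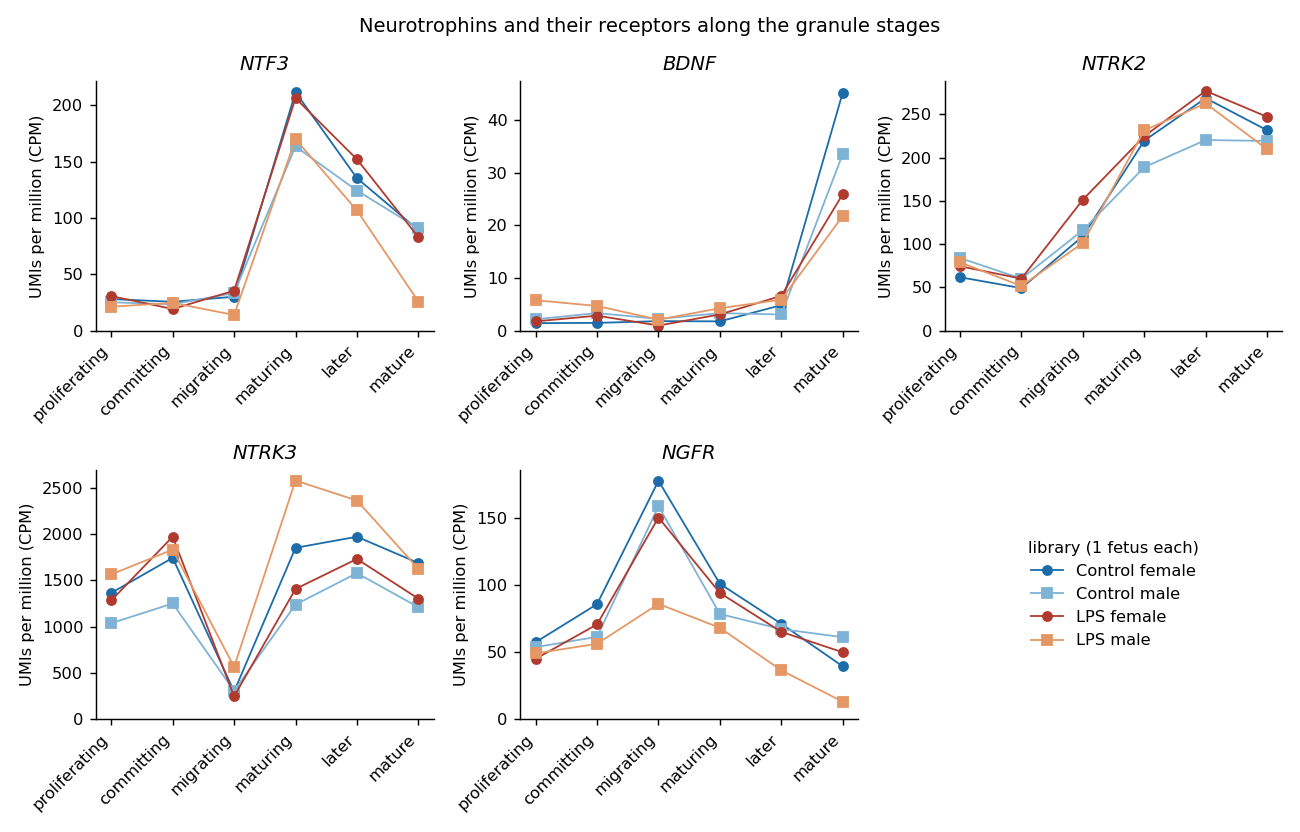
Level of each of the 5 genes (CPM, linear axis from 0) in each library over the 6 stages of the granule lineage, in the order from proliferating to mature. Points and lines are single libraries, 2 Control and 2 LPS. NTF3 is highest in maturing granule cells, BDNF in mature granule cells and NGFR in migrating granule cells, while NTRK3 has its lowest level in migrating granule cells.

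NTRK2, which encodes the BDNF receptor TrkB, was highest outside the granule lineage. Molecular layer interneurons, the inhibitory neurons of the outer layer, had 794.5, 697.3, 670.6 and 755.4 CPM. Astrocytes followed with 691.6, 499.4, 667.8 and 322.6 CPM and Golgi cells, inhibitory neurons of the granule layer, with 476.4, 331.3, 489.0 and 435.1 CPM. Astrocytes overlapped both neighbours in this order, and Golgi cells lay above every library of the later granule cells. Bergmann glia, the radial glia of the cerebellum, had less than the other astrocytes in each library, with 248.1, 166.1, 271.4 and 122.6 CPM. PAX2-positive interneurons, the immature inhibitory neurons, had 89.3, 75.4, 100.5 and 140.0 CPM. Purkinje cells were lowest, with 10, 0, 0 and 2 UMIs, and the counts of 0 allow up to 7.67 CPM in Control male and 6.56 CPM in LPS female. Along the granule lineage NTRK2 had 61.7, 83.9, 74.4 and 79.0 CPM in proliferating precursors as a whole, above committing granule cells in each library. This order held only in the larger cluster of precursors (70.3, 95.5, 87.35 and 92.6 CPM), in which 14.19% of nuclei were called doublets. The smaller cluster, with 1.15% called doublets, had 35.75, 36.5, 34.2 and 42.6 CPM, below the 49.1 to 60.1 CPM of committing granule cells. NTRK2 had 55.2 ± 5.72 CPM in committing granule cells, 120 ± 22.1 in migrating, 216 ± 18.8 in maturing and 257 ± 25.3 in later granule cells, and mature granule cells had 227 ± 16.2 CPM. The steps from committing to migrating and from migrating to maturing did not overlap over libraries, whereas maturing, later and mature granule cells overlapped. At 1000 UMIs per nucleus, 47.7% of molecular layer interneurons (39.8 to 57.4%) held an NTRK2 UMI and 2.85% of microglia did. The share was 84.0% of molecular layer interneurons without thinning.

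NTRK3 encodes the neurotrophin-3 receptor TrkC, and the granule lineage held 78.6% of its 145575 UMIs. It was high in proliferating precursors (1365, 1038, 1284 and 1565 CPM) and in committing granule cells (1744, 1251, 1973 and 1833 CPM). In migrating granule cells it had 300.2, 307.3, 247.5 and 566.3 CPM, below every other granule stage in each library. In maturing granule cells the level was again 1852, 1239, 1408 and 2579 CPM. Later granule cells had the highest mean (1911 ± 342 CPM), but the ranges of all 5 stages other than the migrating one overlapped along the order. Purkinje cells, with 935.8, 810.8, 868.5 and 879.5 CPM, differed least between libraries (SD 51.2 CPM). Bergmann glia had 1021 ± 242, astrocytes 801 ± 205 and the oligodendrocyte lineage 719 ± 118 CPM. The interneurons had lower means, with 527 ± 283 CPM in PAX2-positive interneurons, 243 ± 167 CPM in molecular layer interneurons and 221 ± 71.6 CPM in Golgi cells. PAX2-positive interneurons overlapped these classes through the LPS male library, in which they had 947.7 CPM, above its oligodendrocyte lineage (881.6), Purkinje cells (879.5) and astrocytes (936.9). The levels in molecular layer interneurons and Golgi cells lay below the level of NTRK3 in RNA free of nuclei (432.2, 916.1, 220.3 and 1219 CPM), and no order among the interneurons was read from them. After thinning, 80.5% of later granule nuclei (75.3 to 87.4%), 23.8% of migrating granule nuclei and 10.8% of endothelial nuclei held an NTRK3 UMI, and 96.38% of later granule nuclei did so without thinning.

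NGFR, the gene of the p75 receptor, had its highest mean in the stage in which NTRK3 was lowest. Migrating granule cells had 177.8, 158.8, 150.4 and 86.0 CPM and held 27.4% of its 7645 UMIs. Purkinje cells were next, with 92.6, 92.1, 109.4 and 105.9 CPM from 156 UMIs, and overlapped the migrating stage only because of the LPS male library. In both female libraries these and all other classes lay below NGFR in RNA free of nuclei (259.7 and 237.0 CPM). With the estimated free RNA subtracted, migrating granule cells had 171.7, 171.5, 141.8 and 94.1 CPM. Levels after subtraction are scaled to the UMIs left in the class and library, and can exceed those before it. Before subtraction, maturing granule cells had 101.0, 78.5, 94.2 and 68.2 CPM. Committing granule cells had 85.8, 61.5, 70.7 and 56.3 CPM, and proliferating precursors 57.5, 53.8, 45.1 and 49.1 CPM. In mature granule cells NGFR had 39.5, 61.2, 49.96 and 13.1 CPM. Molecular layer interneurons were lowest with 6.93 ± 2.70 CPM, and all glial classes had means from 12.9 to 28.8 CPM. At 1000 UMIs per nucleus, 13.5% of migrating granule nuclei (8.43 to 15.8%), 11.9% of Purkinje nuclei and 1.04% of molecular layer interneurons held an NGFR UMI. The share of migrating granule nuclei was 32.1% without thinning.

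**Figure D2:**
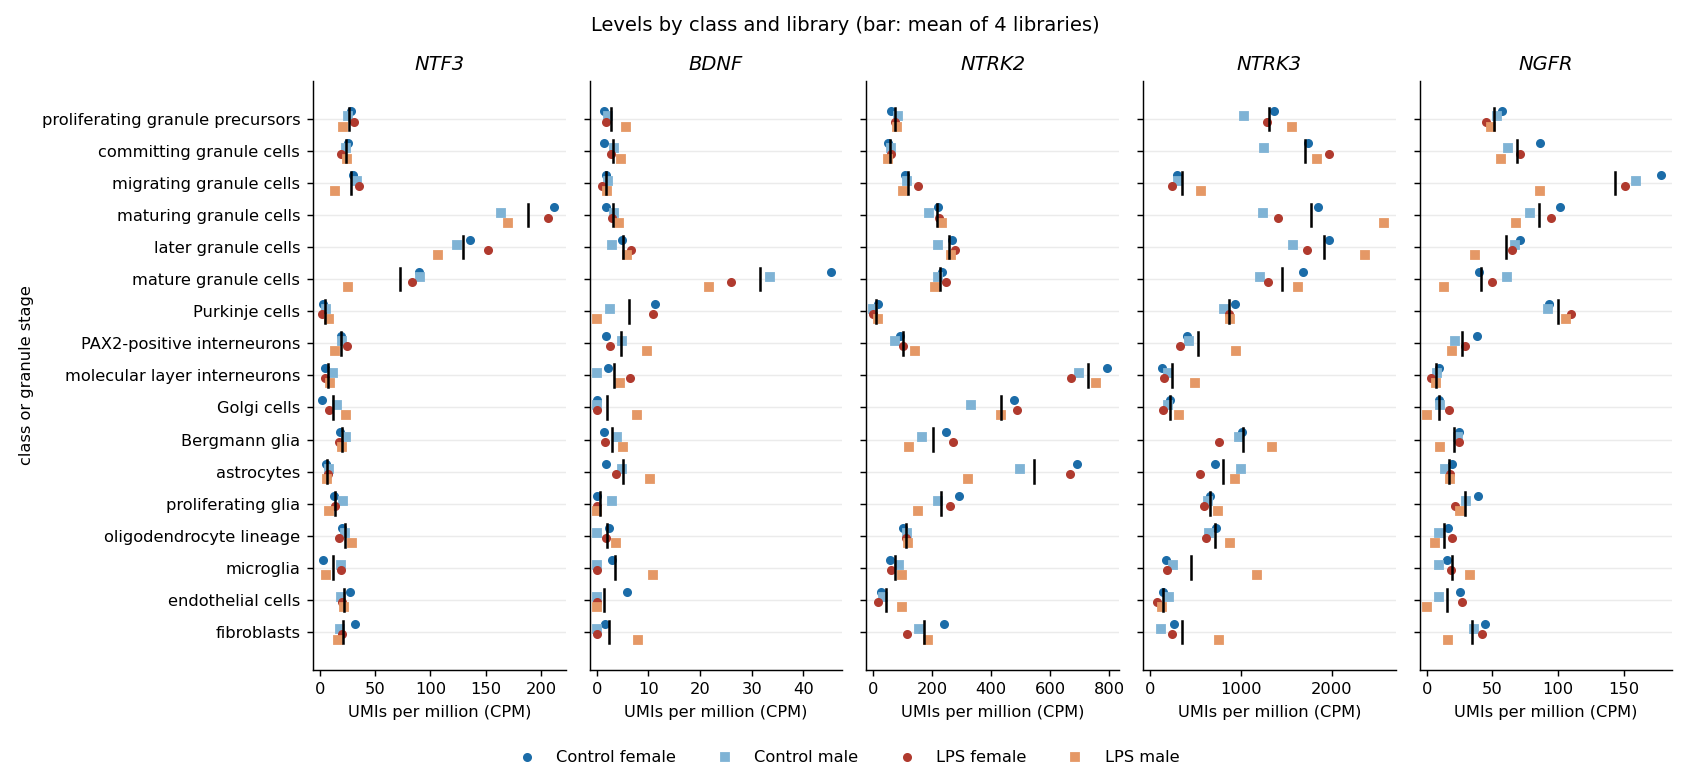
Level of each of the 5 genes (CPM, linear axis from 0) in granule stages, Purkinje cells, interneurons, glia and other classes, with 1 point per library and a bar for the mean of the 4 libraries. NTRK2 is highest in molecular layer interneurons and close to 0 in Purkinje cells, whereas NTRK3 is high in most granule stages and in Purkinje cells and NGFR outside the granule lineage is highest in Purkinje cells.

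Some RNA of every gene was also found free of nuclei. In barcodes with few UMIs (medians of 196 to 496 UMIs per barcode), NTF3 had 60.9, 62.6, 52.7 and 32.6 CPM, BDNF 3.24, 6.49, 3.85 and 6.98 CPM, NTRK2 103, 240.8, 67.4 and 231.8 CPM, NTRK3 432.2, 916.1, 220.3 and 1219 CPM and NGFR 259.7, 46.0, 237.0 and 32.6 CPM. NTRK3 and NTRK2 were thus higher in the free RNA of the male libraries, and NGFR was higher in that of the female libraries. For subtraction the profile of free RNA came from other barcodes, with fewer UMIs than these, whose levels of the 5 genes are not given here. With that profile the share of free RNA in the granule lineage was estimated at 12.7, 14.7, 11.7 and 20.3% of its UMIs. After its subtraction NTF3 was left at 0 in Purkinje cells and astrocytes in all 4 libraries. NTF3 kept 1.13, 13.2, 4.87 and 9.01 CPM in Bergmann glia and 6.98, 8.26, 7.97 and 23.6 CPM in the oligodendrocyte lineage. In PAX2-positive interneurons it kept 0 to 10.7 CPM. NGFR was left at 0 in the oligodendrocyte lineage in all 4 libraries in Bergmann glia and astrocytes in 3 of 4 each and in PAX2-positive interneurons in 2 of 4, whereas Purkinje cells kept 86.3, 93.1, 103.8 and 108.6 CPM. NTRK2 in astrocytes (772, 569.2, 752.5 and 358.5 CPM) and NTRK3 in Purkinje cells (938.9, 802.6, 878.9 and 823.8 CPM) were also kept. BDNF was left at 0 in the oligodendrocyte lineage in 3 of 4 libraries, in Bergmann glia and migrating granule cells in both LPS libraries and in committing granule cells in the LPS male library, and NTRK2 was left at 0 in Purkinje cells in 3 of 4. Before subtraction BDNF in the 4 granule stages from proliferating to maturing also lay below its free RNA in all 4 libraries. The same held for NTF3 in proliferating, committing and migrating granule cells and for NTRK2 in committing granule cells. After subtraction NTF3 kept 16.4 to 23.8 CPM in proliferating, 9.84 to 18.75 in committing and 7.63 to 29.7 in migrating granule cells. NTRK2 kept 32.6, 43.7, 51.65 and 0 CPM in committing granule cells. The levels of NTF3 in Purkinje cells and astrocytes and of NTRK2 in Purkinje cells were therefore not told apart from free RNA. Nor were those of NGFR in the oligodendrocyte lineage, Bergmann glia and astrocytes. The same applies to BDNF in the oligodendrocyte lineage, Bergmann glia and the 4 granule stages from proliferating to maturing. NTF3 in Bergmann glia and the oligodendrocyte lineage was above 0 in 4 of 4 libraries after subtraction. Before subtraction it lay below its free RNA in all 4, so that a level of its own there is not settled. Nor is a level of NTF3 or NGFR settled in PAX2-positive interneurons. Both genes lay below their free RNA there in all 4 libraries before subtraction, which left NTF3 at 0 in the LPS male library and NGFR in 2 of 4. The mean of 447.7 CPM of NTRK3 in microglia rested on 1177 CPM in the LPS male library, close to its free RNA, against 173.3, 248.3 and 191.9 CPM in the others. NTRK3 lay below the free RNA of its library in all 4 libraries in microglia, endothelial cells (146.9, 214.6, 76.4 and 128.7 CPM), molecular layer interneurons (133.5, 196.9, 152.8 and 490.2 CPM) and Golgi cells (222.9, 202.3, 144.0 and 316.5 CPM), and in 3 of 4 in fibroblasts. No subtraction was made in these classes, and their levels of NTRK3 were not told apart from free RNA. PAX2-positive interneurons and migrating granule cells were also below it in 3 of 4 libraries, and after subtraction they kept 257.2 to 792.7 CPM and 199.4 to 417.3 CPM. Mural cells and choroid or ependymal cells, with 32 and 39 nuclei in all, each had 0 UMIs of NTRK3 in 2 libraries.

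**Figure D3:**
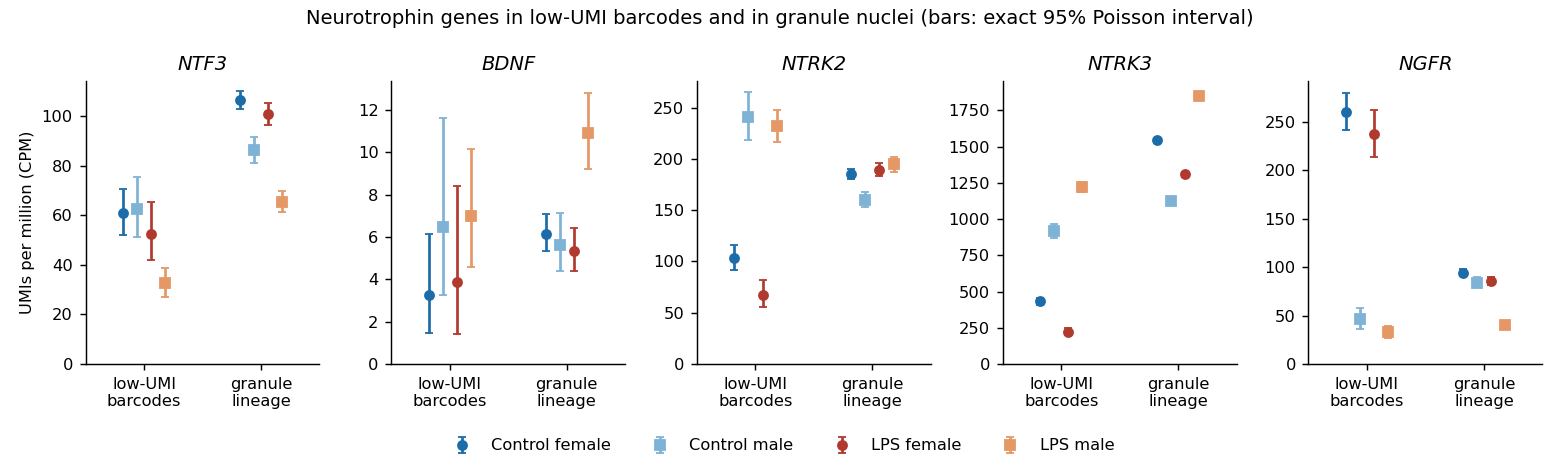
Level of each of the 5 genes (CPM) in barcodes with few UMIs and in the granule lineage, by library, with exact 95% Poisson intervals as bars. NTRK3 is higher in the low-UMI barcodes of both male libraries and NGFR in those of both female libraries.

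To compare stages and classes across fetuses, UMIs were summed per fetus and class and tested with edgeR's quasi-likelihood test with the library as a block and Benjamini-Hochberg adjustment over all genes tested. Calls required an adjusted p below 0.1 together with a log2 fold change of more than 0.25 in either direction. Between granule nuclei outside the proliferating clusters and proliferating precursors, NTF3, NTRK2, NGFR and NTRK3 were called higher in the former. Of all 13803 genes tested, 27.2% were called higher and 23.2% lower. The log2 fold change of NTF3 was 2.13 ± 0.10 (SE, adjusted p = 2.46e-08 by edgeR), and 2.88 when doublets were left out. NTRK2 was higher by 1.62 ± 0.12 (adjusted p = 5.14e-07), NGFR by 0.86 ± 0.16 (adjusted p = 0.000919) and NTRK3 by 0.38 ± 0.08 (adjusted p = 0.00314). BDNF did not pass the filter on low counts in the precursors taken alone, with 4, 3, 4 and 6 UMIs, and entered the test through the other granule nuclei, so that its log2 fold change of 1.84 is given without an error. In CPM the direction held in 4 of 4 libraries for each of the 5 genes except NGFR, for which it held in 3 of 4. TMM scaling, which assumes that most genes do not change, added 0.226 to the log2 ratio of CPM in this contrast, and the mean CPM of NTRK3 was 1471 against 1313. The log2 ratio of these means is under the threshold of 0.25, so that the call of NTRK3 depends on the scaling. The nuclei outside the proliferating clusters also include migrating granule cells, in which NTRK3 was below the precursors in each library.

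Mature granule cells were then compared with committing granule cells, the first stage after the cell cycle. NTRK2 was higher in mature granule cells by 2.41 ± 0.12 on the log2 scale (adjusted p = 3.81e-06, edgeR) and NTF3 by 2.01 ± 0.29 (adjusted p = 0.000593), and with free RNA subtracted the fitted values were 3.33 and 2.72. The former depends on the LPS male library, in which the subtraction left NTRK2 at 0 in committing granule cells, against 32.6, 43.7 and 51.6 CPM in the others, and is no exact fold. NTF3 had 25.6, 23.4, 19.2 and 24.6 CPM in committing granule cells. In the LPS male library the mature stage had 25.8 CPM of NTF3 against 24.6, and the exact 95% count intervals of the pair overlapped (21.6 to 30.7 and 15.3 to 37.7 CPM). BDNF had 5, 5, 8 and 4 UMIs in committing granule cells (1.47, 3.34, 2.84 and 4.69 CPM), below the mature stage in each library, and did not pass the filter there, so that its log2 fold change of 3.997 is given without an error. Of 11685 genes tested, 26.4% were called higher and 28.5% lower. NTRK3 and NGFR were not called, with 0.14 ± 0.16 (adjusted p = 0.501) and -0.53 ± 0.28 (adjusted p = 0.161), respectively. In CPM both were lower in mature granule cells in 4 of 4 libraries, and TMM scaling, which added 0.357 to the log2 ratio in this contrast, turned the sign for NTRK3. NGFR was called lower when genes with few counts were kept (-0.56, adjusted p = 0.00286) and without the Control male library (-0.74, adjusted p = 0.0883).

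Purkinje cells, the output neurons of the cerebellar cortex, were compared with the granule lineage through NTRK3 and NGFR, which alone of the 5 genes passed the filter on low counts within Purkinje cells. NTRK3 was lower by -0.74 ± 0.25 (adjusted p = 0.0197, edgeR), while 16.7% of 14136 genes were called higher and 24.5% lower and the median of all genes was -0.19. NGFR was not called (0.35 ± 0.22, adjusted p = 0.226). NTRK2, with 10, 0, 0 and 2 UMIs in Purkinje cells, had a log2 fold change of -4.62, which ranged from -6.41 to -2.05 over the alternatives. NTF3, with 2, 2, 1 and 1 UMIs, was at -4.61 and ranged from -12.72 to -1.89. The lowest of these came without the Control female library for NTRK2 and with free RNA subtracted for NTF3, which left NTF3 at 0 in all 4 libraries of Purkinje cells, so that -12.72 is no exact fold, and the smallest changes with classes from marker scores. BDNF, with 7, 1, 5 and 0 UMIs, was at 0.35. These 3 genes entered the test through their counts in the granule lineage.

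PAX2-positive interneurons had NTF3, NTRK3, NGFR and NTRK2 lower than the granule lineage, with 11.9% of 13879 genes called higher and 16.3% lower. NTF3 was lower by -2.25 ± 0.14, NTRK3 by -1.59 ± 0.15, NGFR by -1.51 ± 0.14 and NTRK2 by -0.91 ± 0.11 (adjusted p of 5.95e-08, 3.28e-06, 2.49e-06 and 3.07e-05, edgeR). With free RNA subtracted the fitted values were -3.975 for NTF3 and -4.82 for NGFR. They are no exact folds, since the subtraction left these interneurons with 4.39, 8.48, 10.7 and 0 CPM of NTF3 and 0, 8.48, 0 and 4.24 CPM of NGFR. With doublets left out NTRK3 was at -2.18. BDNF had 3, 5, 3 and 7 UMIs in these interneurons (1.82, 4.84, 2.62 and 9.80 CPM) and did not pass the filter there. In Bergmann glia NTF3 (-2.24 ± 0.15), NGFR (-1.88 ± 0.10) and NTRK3 (-0.53 ± 0.11) were lower than in the granule lineage, with adjusted p of 5.51e-06, 1.86e-06 and 0.00441 (edgeR). Of 14366 genes, 23.2% were called higher and 27.3% lower in Bergmann glia. With free RNA subtracted NTF3 was at -4.01 there, and NGFR at a fitted -5.01 with 3 of 4 libraries at 0. Leaving out doublets lowered the mean level of NTF3 from 19.65 to 8.65 CPM in Bergmann glia and from 19.4 to 7.98 CPM in PAX2-positive interneurons. BDNF had 5, 6, 3 and 6 UMIs in Bergmann glia (1.52, 4.004, 1.54 and 5.11 CPM) and did not pass the filter there. NTRK2 differed by 0.10 ± 0.18 there (adjusted p = 0.689), and was called higher without the LPS male library (0.37, adjusted p = 0.0341).

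**Figure D4:**
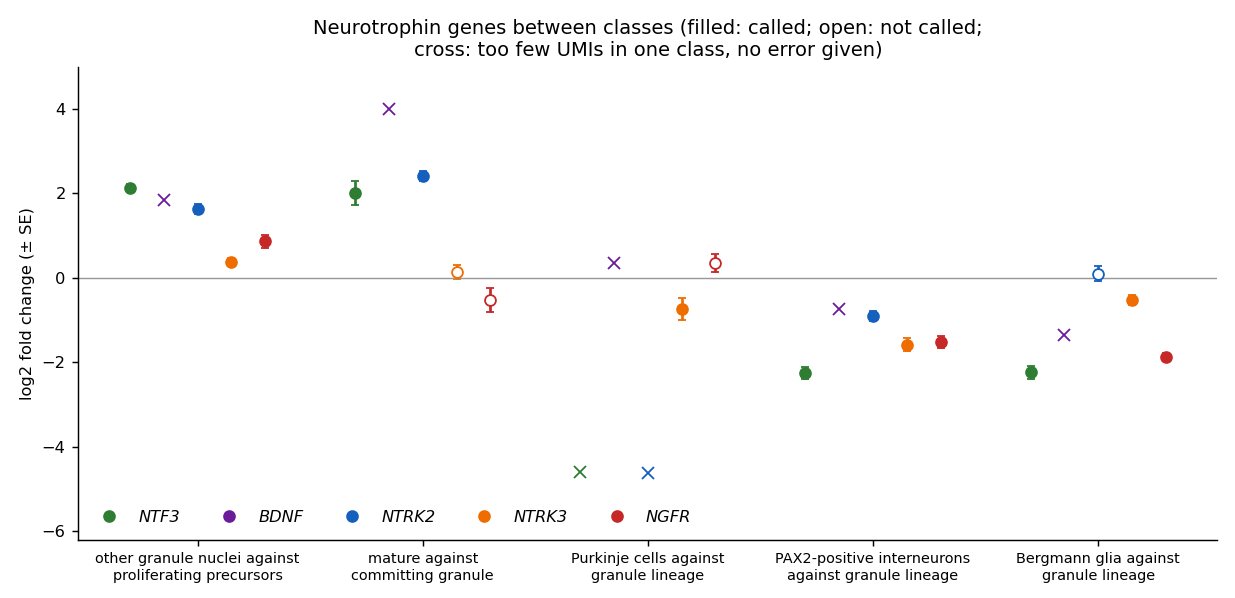
Log2 fold change of each gene in the 5 comparisons between stages or classes (edgeR, error bars are SE, n = 4 fetuses), with called genes filled and others open. Crosses without an error mark genes that passed the filter on low counts in only 1 of the 2 classes. NTF3 and NTRK2 lie above 0 in both comparisons along the granule lineage, and NTF3 is called at -2.25 in PAX2-positive interneurons and -2.24 in Bergmann glia, values that moved to -3.975, with 1 library at 0, and -4.01 with free RNA subtracted.

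Of 59 other genes of neurotrophin signaling (ligands, co-receptors, processing enzymes, p75 partners, Trk adapters, kinase cascades and activity targets), 55 had 1 entry of their own in the gene list. SORT1, which encodes the p75 co-receptor sortilin, had a mean of at most 2.06 CPM in any class. Counts of called pathway genes are given beside the shares over all genes and were not tested against them. In granule nuclei outside the proliferating clusters, 14 of 47 pathway genes tested were called higher and 8 lower than in proliferating precursors. Over all genes the shares were 27.2% and 23.2%. LINGO1, a partner of p75 at the cell surface, was higher by 2.43 ± 0.12, the adapter SHC4 by 1.15 ± 0.26 and KIDINS220, a scaffold of neurotrophin receptors, by 0.95 ± 0.08. The proprotein convertase PCSK6 (-1.53 ± 0.14), the p75 co-receptor SORCS2 (-1.44 ± 0.16) and the kinase MAP2K1 (-0.92 ± 0.08) were lower. In mature against committing granule cells, 14 of 46 were called higher and 9 lower, of which 12 and 8 passed the filter in both stages. Of all genes, 26.4% were called higher and 28.5% lower. LINGO1 was higher by 4.02 ± 0.24. The log2 fold changes of SORCS2 (-4.46), of the Nogo receptor RTN4R (2.99) and of SHC4 (2.73) rest on too few UMIs in one of the stages and are given without an error. PCSK6 (-2.22 ± 0.28) and the adapter GAB1 (-2.21 ± 0.16) were lower in the mature stage.

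Purkinje cells had 8 of 47 pathway genes called higher and 16 lower than the granule lineage, against 16.7% and 24.5% of all genes. Of these pathway genes, 6 of the higher and 10 of the lower passed the filter in both. SORCS3, a receptor of the sortilin family, was higher by 4.62 ± 0.39, PCSK6 by 4.14 ± 0.25 and PLAT, a protease of the plasminogen system, by 3.24 ± 0.44. The convertase PCSK5 was lower by -3.91 ± 0.33, and SHC4 (-3.95) and SORCS1 (-3.66) did not pass the filter in Purkinje cells. In PAX2-positive interneurons 6 of 50 were called higher and 8 lower, against 11.9% and 16.3% of all genes. Of these pathway genes, 6 of the higher and 6 of the lower passed the filter in both. SORCS3 was at 5.28 ± 0.25, the PI3-kinase subunit PIK3R1 at 1.79 ± 0.28 and SHC4 at 1.401 ± 0.19. The carboxypeptidase CPE was at -1.20 ± 0.13 and SORCS1 at -1.17 ± 0.23. PCSK6 was at -1.36 and did not pass the filter in these interneurons. In Bergmann glia 15 of 49 were called higher and 11 lower, against 23.2% and 27.3% of all genes. Of these pathway genes, 12 of the higher and 11 of the lower passed the filter in both. PCSK6 (4.87 ± 0.13), PIK3R1 (3.11 ± 0.32) and SORCS2 (2.89 ± 0.14) led the former, and SORCS1 (-1.75 ± 0.13), LINGO1 (-1.64 ± 0.16) and the exchange factor RAPGEF1 (-0.84 ± 0.09) the latter. All pathway genes given here with an error were past the threshold, with adjusted p of at most 0.00301 (edgeR).

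The genes most like each of the 5 in their levels over 20 classes and stages were sought among 14350 genes by Pearson's r of log2(mean CPM + 1). The points share libraries and stages, and r is given as a description. Most like NTF3 were FBXO25 (r = 0.896), the glycoprotein gene RELN (0.868) and ENSMMUG00000045821 (0.862). BDNF was most like SLIT3, a guidance ligand (0.889), PKIB (0.788) and PATJ (0.781), each of which had its highest level in unipolar brush cells. BDNF itself had 11 UMIs in unipolar brush cells and 1 in choroid or ependymal cells, and levels from so few counts enter its r. NTRK2 was most like CSMD1 (0.809), JAZF1 (0.797) and CHL1 (0.756), which were highest in astrocytes. NTRK3 was most like RALYL (0.873), ENSMMUG00000045132 (0.867) and WASF3 (0.860), and NGFR was most like THSD7A (0.872), ENSMMUG00000011468 (0.850) and the transcription factor gene ONECUT2 (0.848).

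NTF3 and the gene of its receptor were found in the same nuclei. Of 4504 maturing granule nuclei thinned to 1000 UMIs, 701 held an NTF3 UMI and 553 of these also held an NTRK3 UMI, against 532.8 if the pair were independent. In later granule nuclei 487 of 603 did so, against 483.6. NTF3 and NTRK2 shared 133 maturing granule nuclei, against 133.7. In the later stage 2 nuclei held both BDNF and NTF3, against 2.54. These numbers describe nuclei and not fetuses, and they were not tested.

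Control and LPS libraries were compared in 6 classes with the fetus as the replicate. None of the 5 genes was called in any class, and 0% of all genes were called in each of the 6 comparisons (edgeR, 6482 to 14886 genes tested). From 27 to 76 genes per class had an unadjusted p under 0.05, and DESeq2 called 1 gene in the oligodendrocyte lineage and 0 in the other classes. With sex as a block, which pairs the libraries by sex, 51 genes were called in PAX2-positive interneurons and 25 in the oligodendrocyte lineage, none of them among the 5. In the granule lineage NTF3 had 106.4, 86.2, 100.9 and 65.6 CPM, with a log2 fold change of -0.22 ± 0.36 (SE, unadjusted p = 0.572 by edgeR across all genes). BDNF had 6.16, 5.63, 5.35 and 10.9 CPM (0.46 ± 0.52, unadjusted p = 0.422, edgeR). NTRK2 had 185.3, 160.0, 189.5 and 194.7 CPM (0.15 ± 0.28, unadjusted p = 0.618, edgeR), and was the only one of the 5 whose LPS libraries both lay above both controls. Of all genes tested in the granule lineage, 12.2% had groups that did not overlap. NTRK3 had 1547, 1126, 1309 and 1846 CPM (0.23 ± 0.39, unadjusted p = 0.589, edgeR) and NGFR 94.1, 84.1, 85.6 and 40.5 CPM (-0.50 ± 0.45, unadjusted p = 0.312, edgeR). The adjusted p was at least 0.999 for each of the 5. Without the LPS male library the log2 fold change was -0.06 for NGFR, 0.064 for NTF3, -0.0376 for NTRK3 and -0.14 for BDNF.

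The LPS male library had both the highest BDNF in the granule lineage and the highest share of mature granule cells, and a link between them was not tested. With the granule clusters weighted equally in each library, BDNF had 6.89, 6.89, 5.84 and 5.61 CPM, and the log2 ratio of LPS to Control turned from 0.46 to -0.27. An unnamed cluster among the 10 had 0 BDNF UMIs in its 11 nuclei of the LPS male library, which allows up to 81.2 CPM there, so that the sign with equal weights is not settled at this depth. The log2 ratio with equal weights was -0.14 for NTF3, 0.11 for NTRK2, 0.29 for NTRK3 and -0.37 for NGFR. In exact two-sided permutation tests of the summed levels, p was 0.333 to 1, and 0.333 is the smallest p that 2 against 2 fetuses allow.

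In Purkinje cells, NTRK3 and NGFR passed the filter on low counts, with log2 fold changes of -0.06 ± 0.62 and 0.18 ± 0.50, and the other 3 genes did not pass. In PAX2-positive interneurons NTRK3 was at 0.59 ± 0.47 (unadjusted p = 0.258, edgeR), from 403.3, 428.5, 330.4 and 947.7 CPM, and turned to -0.30 without the LPS male library. NTRK2 was at 0.52 ± 0.33 there (unadjusted p = 0.1601, edgeR) and at 0.31 without that library, NGFR at -0.31 ± 0.50 and NTF3 at 0.01 ± 0.49. In Bergmann glia the 4 genes tested lay between -0.44 ± 0.56 (NGFR) and 0.06 ± 0.40 (NTRK3). Among astrocytes NTRK2 was at -0.27 ± 0.50, NTRK3 at -0.21 ± 0.40 and NGFR at 0.06 ± 0.51, and in the oligodendrocyte lineage the 4 genes tested lay between -0.15 ± 0.85 (NGFR) and 0.14 ± 0.58 (NTF3). BDNF passed the filter in the granule lineage alone. Of the pathway genes tested, 51 in the granule lineage, 30 in Purkinje cells, 38 in PAX2-positive interneurons, 44 in Bergmann glia, 43 in astrocytes and 34 in the oligodendrocyte lineage, 0 were called and 0 had an unadjusted p under 0.05 (edgeR). Over all genes, in the same order of classes, 27 of 14886, 29 of 6482, 36 of 9263, 38 of 10711, 46 of 9995 and 76 of 8059 did so. With so few over all genes, 0 in so short a list says little about an effect of LPS on the pathway.

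The 2 fetuses of each group differed in sex, and the pairs of one sex gave different pictures. These ratios compare single libraries, and their exact 95% intervals cover counting error only. For NTRK3 in the granule lineage the LPS female library had 0.846 times the level of the Control female library (0.833 to 0.859), and the LPS male library had 1.64 times that of the Control male library (1.60 to 1.67). In astrocytes the ratio between the male libraries was 0.938 (0.855 to 1.03). For NGFR in the granule lineage the ratio was 0.910 (0.857 to 0.965) in females and 0.481 (0.433 to 0.534) in males. In mature granule cells NGFR had a ratio of 1.26 in females and 0.214 in males, and NTF3 had 0.930 and 0.284. BDNF in mature granule cells was lower in both pairs, at 0.573 (0.389 to 0.830) and 0.649 (0.438 to 0.985). NTRK2 in astrocytes had a ratio of 0.966 in females and 0.646 in males. After the estimated free RNA was subtracted, the ratio of NTRK3 in the granule lineage was 0.847 in females and 1.72 in males, and that of NGFR was 0.906 and 0.441. With the granule clusters weighted equally, so that the share of mature granule cells did not enter, the log2 ratio between the male libraries was 0.81 for NTRK3 (0.71 with summed UMIs) and -0.58 for NGFR (-1.055 with summed UMIs). With 1 fetus for each sex and group, the effect of sex on the LPS contrast cannot be told apart from the difference between single fetuses. Gestational age also differed between the groups, with 130 against 131 days in females and 130 against 133 days in males. Its effect cannot be told apart from that of LPS or of sex.

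**Figure D5:**
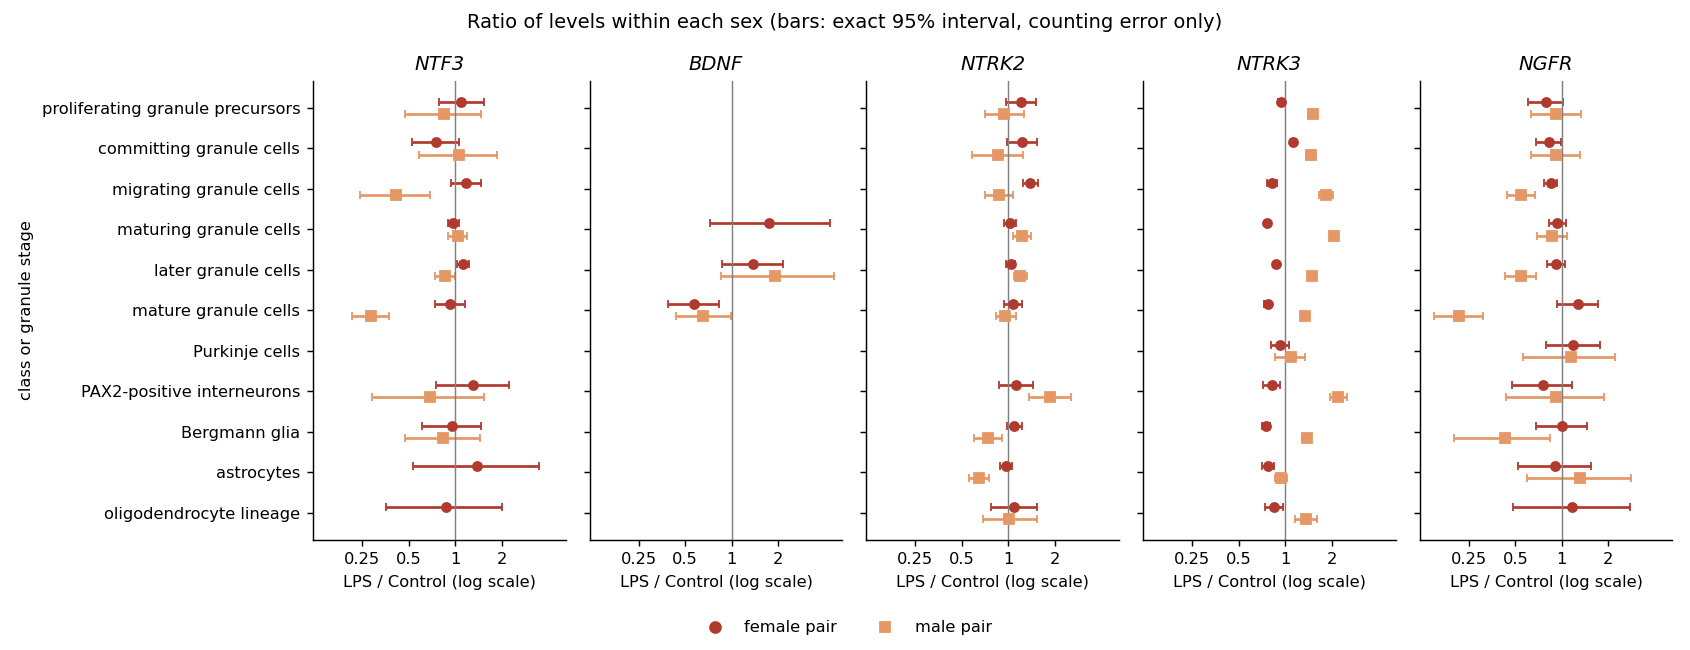
Ratio of the LPS to the Control library of the same sex (log axis, error bars are exact 95% intervals of the counts) for each gene by granule stage and class, with female and male pairs as separate points. Pairs with fewer than 10 UMIs in either library are not drawn. NTRK3 in maturing granule cells lies at 0.760 in females and 2.08 in males, and NGFR in mature granule cells at 1.26 and 0.214.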

How the data were processed

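Nuclei of flash-frozen cerebellum were captured with the 10x Genomics 3' v3.1 kit in 2 Control and 2 LPS fetuses, 1 library each. The authors mapped the reads to Mmul_8.0.1 with introns included, and the deposited matrices hold whole-number UMI counts per gene and barcode, without normalization, filtering of barcodes or removal of ambient RNA. The submitters' processing notes name Cell Ranger 4, and the protocol text names another version. Groups and sexes were taken from the labels, and replicate numbers only name samples. Each library was 1 fetus, so the fetus was the replicate.

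Nuclei were barcodes with 500 genes or more and no more than 5% of UMIs on mitochondrial genes. Libraries were integrated with anchors in Seurat 5.3.0 (R 4.3.3) with 2000 features, 30 dimensions and a resolution of 0.5, without the 5 genes and their pathway list. Clusters were named from marker lists. A cluster stayed unnamed when its UMI number was low without own markers among its 10 leading genes, when over 50% of its nuclei were called doublets, a limit set after seeing the data, when fewer than 3 markers were raised, or when those leading genes held more markers of other lists than of its own. Doublets were called by Scrublet in scanpy 1.11.5 and kept. The automatic threshold marked no nucleus in either male library, and both took 0.1921, the midpoint of the thresholds of the female libraries. The low-UMI barcodes are those ranked after 3 times the number of nuclei. Subtraction of free RNA used the profile of barcodes with fewer UMIs than these, and CPM after it were scaled to the UMIs left.

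UMIs were summed per fetus and class and tested on all genes with edgeR 4.0.16 (filterByExpr, TMM), and a gene that passed the filter in only 1 of the 2 classes compared is given without error or p. DESeq2 1.42.0 was the other tool. The scripts were tested on simulated data. Levels were expressed as CPM. Intervals are exact, and a count of 0 was given a limit of 3 counts. Shares of nuclei were taken after thinning to 1000 UMIs, which left out 3116 shallower nuclei. Named genes are the 5 genes in every class, the 3 called pathway genes of largest change in each direction, and the 3 genes most like each of the 5. The 5 genes and all gene lists were chosen with earlier results of these data known. Counts over genes cannot separate the full-length and truncated forms of NTRK2 and NTRK3. Some genes of the pathway list are not reported here by name.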

Additional observations from a re-analysis of the deposited data

Results flagged for a closer look

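For 11 combinations of gene and class, the ratio of the LPS to the Control library lay below 1 in one sex and above 1 in the other, with exact 95% count intervals that left out 1 in both pairs. The difference between the sexes was not tested, since each sex had 1 fetus per group. The intervals cover counting error only and are narrow for a gene with many UMIs, and NTRK3 had 145575. The share of all genes with such ratios is not given here, so that the count is no result about the 5 genes. For NTRK3 the ratio was below 1 in females and above 1 in males in 10 classes. These include the granule lineage beside its own stages, which share nuclei, and are not separate results. It was 0.846 and 1.64 in the granule lineage as a whole, 0.940 and 1.51 in proliferating precursors, 0.824 and 1.84 in migrating, 0.760 and 2.08 in maturing, 0.878 and 1.497 in later and 0.772 and 1.34 in mature granule cells. In PAX2-positive interneurons it was 0.819 and 2.21, in Golgi cells 0.646 and 1.56, in Bergmann glia 0.749 and 1.38 and in the oligodendrocyte lineage 0.847 and 1.36. The other 7 classes with this ratio did not show it: committing granule cells (1.13 in females and 1.46 in males), molecular layer interneurons (1.14 and 2.49) and microglia (1.11 and 4.74) lay above 1 in both sexes, and astrocytes (0.770 and 0.938) and endothelial cells (0.520 and 0.5998) below 1 in both. Purkinje cells (0.928 and 1.085) and fibroblasts (0.925 and 6.01) had female intervals that held 1, as did molecular layer interneurons and microglia. The male intervals of Purkinje cells, astrocytes and endothelial cells also held 1. NTRK3 in low-UMI barcodes moved the same way, with 432.2 and 220.3 CPM in the Control and LPS female libraries and 916.1 and 1219 CPM in the male libraries. With the estimated free RNA subtracted, the ratio was 0.847 and 1.72 in the granule lineage, 0.817 and 2.59 in PAX2-positive interneurons, 0.741 and 1.41 in Bergmann glia and 0.866 and 1.27 in the oligodendrocyte lineage. Golgi cells, molecular layer interneurons, microglia, endothelial cells and fibroblasts were not subtracted. The first 4 of these lay below the free RNA of NTRK3 in all 4 libraries and fibroblasts in 3, so that their ratios cannot be told apart from those of free RNA. NTF3 in later granule cells was at 1.12 in females and 0.859 in males.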

How the results depend on the processing

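None of the 5 genes was called between LPS and Control under any of 305 alternative values (other tool, scaling, filter, sex as a block, left-out libraries, nuclei, classes, free RNA, single stages), of which 41 changed sign. The single stages were added after seeing the data. Replicate numbers do not link fetuses, and sex as a block pairs the libraries by sex alone. The cause of the changes below was not tested. In mature granule cells alone BDNF was at -0.75 and NTRK3 at -0.009986. With equal weights of granule clusters BDNF was at -0.27. Marker-score classes gave 0.13 (NTRK3) and -0.23 (NGFR) in Purkinje cells, -0.89 for NTF3 in PAX2-positive interneurons, 0.0843 for NTRK2 in Bergmann glia, -0.0749 for NGFR in astrocytes and -0.0183 for NTF3 in the oligodendrocyte lineage. NTF3 in PAX2-positive interneurons was also at -0.0106 (DESeq2), -0.0329 (no filter on low counts) and -0.0882 (at least 1000 genes), and NGFR in astrocytes at -0.0343 (at least 1000 genes). With free RNA subtracted NTF3 in Bergmann glia was at 0.0916 and NTRK2 in the oligodendrocyte lineage at -0.0317. With doublets left out NTRK2 in Bergmann glia was at 0.0139 and NTRK3 at -0.009635, and NTRK2 in Bergmann glia against the granule lineage was at -0.0882.

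With each library left out in turn, LPS values ranged in the granule lineage from -0.57 to 0.064 for NTF3, -0.14 to 0.88 for BDNF, -0.00186 to 0.35 for NTRK2 and -0.0376 to 0.57 for NTRK3. NTRK3 ranged from -0.27 to 0.24 in Purkinje cells, -0.30 to 1.12 in PAX2-positive interneurons, -0.34 to 0.35 in Bergmann glia, -0.56 to 0.0521 in astrocytes and -0.12 to 0.27 in the oligodendrocyte lineage. NGFR ranged from -0.70 to 0.26 in PAX2-positive interneurons, -1.34 to 0.0682 in Bergmann glia, -0.24 to 0.48 in astrocytes and -1.19 to 0.50 in the oligodendrocyte lineage. NTRK2 ranged from -0.87 to 0.42 in Bergmann glia and -1.001 to 0.20 in astrocytes, and NTF3 from -0.55 to 0.35 in PAX2-positive interneurons and -0.23 to 0.39 in the oligodendrocyte lineage. Between classes, BDNF ranged from -0.13 to 0.66 in Purkinje cells and NTRK2 from -0.046 to 0.37 in Bergmann glia. Of 290 alternative values between classes 11 changed sign or call, and those that changed a call are given above, except that BDNF in PAX2-positive interneurons, with few UMIs there, was called lower under 3 of them.

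The 0 genes called between LPS and Control became 1 to 12 in Purkinje cells, 0 to 75 in PAX2-positive interneurons, 0 to 26 in Bergmann glia, 0 to 69 in astrocytes and 11 to 59 in the oligodendrocyte lineage with a library left out. Without the filter on low counts they were 4, 3, 11, 5 and 9. With sex as a block 51 were called in PAX2-positive interneurons and 25 in the oligodendrocyte lineage, where DESeq2 called 1. The shares of nuclei with a UMI rose without thinning to 35.6% (NTF3), 9.63% (BDNF), 84.0% (NTRK2), 96.38% (NTRK3) and 32.1% (NGFR). Depth limits BDNF most, at 690 UMIs in all.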
